A study of Rattus norvegicus with 9 samples.

Results

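The expression of 10 genes of the Hippo pathway and its effector YAP was followed across control, senescent and treated rat disc cells: Ccn1, Ccn2, Ankrd1, Amotl2, Ajuba, Axl, Yap1, Wwtr1, Lats2 and Tead1. They were chosen by symbol, and all 10 were present among the 22324 genes of the deposited table. Primary nucleus pulposus cells, from the soft inner part of the discs between the vertebrae of wild-type rats, gave 9 poly(A) RNA-seq libraries in 3 groups of 3. NC carried no treatment label and was taken as the untreated control. SEN was labelled as senescence induced with doxorubicin, a drug that damages DNA, which the protocol gives as 200 nM over 24 h with 6 more days in new medium. BNPMT was labelled as an intervention of that name in the same senescence, and the labels expand neither the name nor its dose or timing. The protocol text on doxorubicin stands on every sample, NC included. All groups shared high-glucose medium with 10% serum. No label names animals or separate cultures, so each p-value measures the variation among these libraries only, which can be technical. The study's title concerns disc degeneration, the mitochondrial outer membrane and extracellular DNA, and states no question about YAP.

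The Hippo pathway is a kinase relay that restrains growth. Its last kinases, LATS1 and LATS2, phosphorylate the co-activators YAP (gene Yap1) and TAZ (gene Wwtr1) and keep them out of the nucleus. Unphosphorylated YAP and TAZ enter the nucleus and raise transcription with TEAD factors, which bind DNA, and cell spreading, matrix stiffness and actin tension favour this state. Phosphorylation and location cannot be read from RNA, so the values below are transcript levels only. In bulk RNA, fewer cells of a type and less RNA per cell cannot be told apart.

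Depth ranged from 31206834 to 41971877 counts over the 9 libraries. Library values are given as CPM, the count divided by the library's total and scaled to 1e6, whereas log2 changes use the trimmed mean of M-values (TMM), which assumes that most genes do not change. The choice matters for SEN: over all genes tested, the median log2 change in SEN against NC was -0.013 under TMM and -0.46 with total counts as the scale. These medians were 0.017 and 0.52 for BNPMT against SEN, and 0.0047 and 0.055 for BNPMT against NC. BNPMT 1 stood apart from its group: a chi-square statistic over genes, divided by its degrees of freedom, was 31.6 and 26.5 against its replicates, which differed from each other by 3.41. SEN 1 differed from its replicates by 16.5 and 13.2, against 6.54 between those, and pairs of NC libraries lay at 3.71 to 4.63.

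Transcripts of 4 direct YAP targets, Ccn2, Ajuba, Amotl2 and Ccn1, fell in SEN against NC and rose in BNPMT against SEN, while the co-activator gene Wwtr1 moved in the opposite direction. By edgeR's quasi-likelihood test (adjusted p below 0.05), 4 of the 10 genes were called lower and 2 higher in SEN against NC. Ankrd1 and Lats2, also YAP targets, were not called there under TMM, nor were Axl and Tead1. Genes of a published target signature, given below, were called in each direction there. Of all 14956 genes tested, 76.1% were called in that comparison, 38.5% lower and 37.6% higher, so a call alone did not set the 10 genes apart. In BNPMT against SEN 6 of the 10 were called higher and 4 lower, where 80.6% of all genes were called, 40.7% higher and 39.9% lower. In BNPMT against NC 5 were called lower and 0 higher, where 52.8% of all genes were called, 26.5% lower and 26.3% higher. At an unadjusted p below 0.05 edgeR also called 0 higher there, as did DESeq2 after adjustment (0). The comparisons share libraries, so a fall in SEN against NC and a rise in BNPMT against SEN both use the SEN values.

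**Figure D1:**
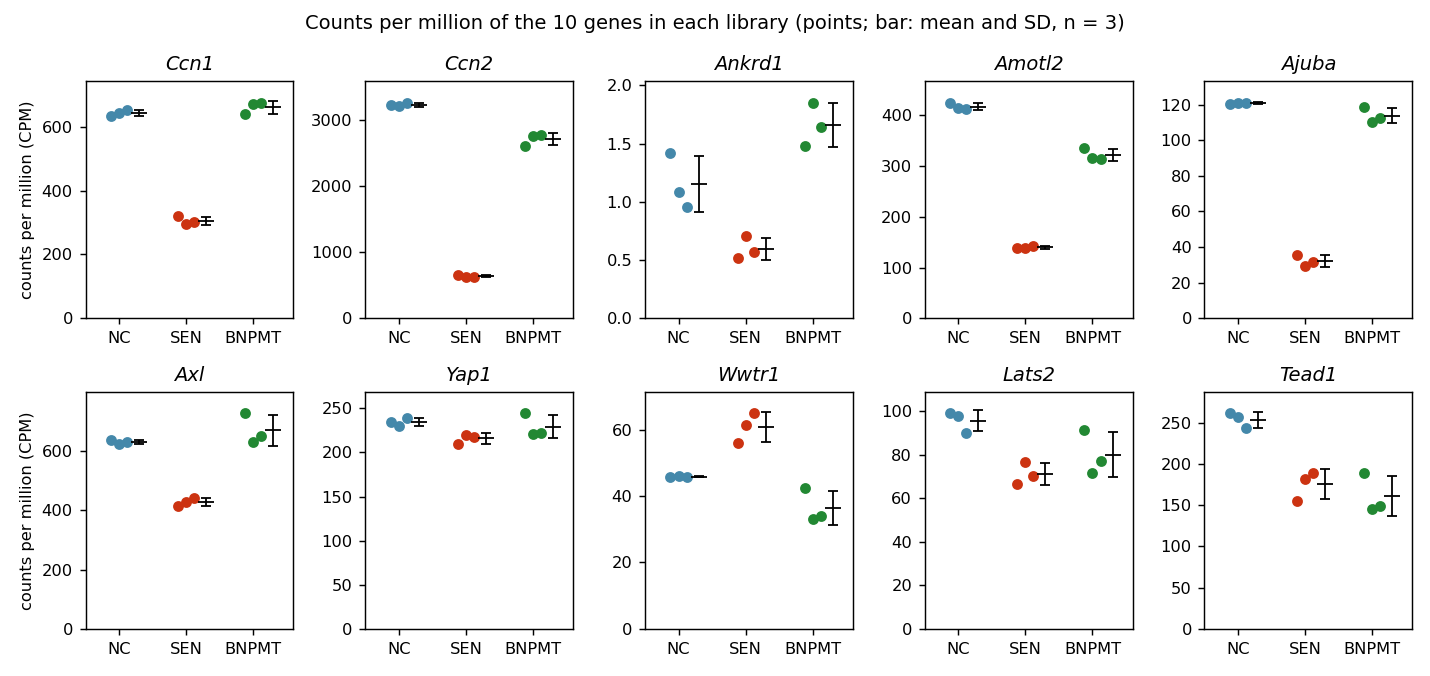
Counts per 1e6 (CPM) of each gene in each library, with 1 panel per gene and a vertical axis from 0. Points are libraries and bars are the mean and SD of 3 libraries. Ccn1, Ccn2, Ankrd1, Amotl2, Ajuba, Axl and, by a small margin, Yap1 are lower in all 3 SEN libraries than in every other library. Wwtr1 is higher there. With total counts as the scale, 56.9% of all genes were called lower in SEN against NC. The share of all genes that separate by library in this way was not counted.

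Per transcript length (FPKM), Ccn2 and Ccn1 were the most abundant of the 10 genes in every group. In NC the mean FPKM levels ran from Ccn2 at 1382 ± 12.1 (SD, n = 3) through Ccn1 at 324 ± 5.01, Axl at 144 ± 1.38, Amotl2 at 86.3 ± 1.48 and Yap1 at 53.1 ± 1.06 to Ajuba at 37.4 ± 0.113. Wwtr1 followed at an FPKM level of 29.8 ± 0.120, Tead1 at 24.2 ± 0.913, Lats2 at 18.7 ± 0.948 and Ankrd1 at 0.576 ± 0.120. No neighbours in that order overlapped in NC. The FPKM order differed in SEN, where Yap1 at 48.8 ± 1.31 and Wwtr1 at 39.5 ± 2.94 stood above Amotl2 at 29.0 ± 0.525, and Ajuba at 9.92 ± 1.01 stood below Lats2 at 13.9 ± 0.987. Libraries of Tead1 and Lats2 overlapped in FPKM in SEN and in BNPMT.

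TEAD factors recognise the letters CATTCC, and the start regions of the genes were searched for them because 4 targets moved together. RefSeq (build GRCr8) gave a start window for 7 of the 10 genes, matched by symbol: Ccn1, Ccn2, Amotl2, Ajuba, Axl, Yap1 and Wwtr1. The windows of Ankrd1, Lats2 and Tead1 were not analysed here. CATTCC was searched on both strands (as CATTCC or GGAATG) in the 250 bases before the annotated start, and 5 of the 7 windows held it: those of the 4 targets that fell in SEN, and that of Yap1. Among all 33469 windows of the table, 12.1% held it. Ccn2 held 3 matches, a number reached by 0.0777% of all windows. The 4 targets were listed as known YAP targets, so TEAD letters in their windows are likely from that choice alone. The shares over all windows are therefore not an even comparison, and a link between the letters and the falls in SEN was not tested.

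The 5 windows with a match are shown because they carry the shared letters. Each runs 5′ to 3′ on the gene's strand and ends at the base before the start, with the matches in capitals. They lie at chr1:22624615-22624864 on the minus strand for Ccn2, chr2:237225690-237225939 (minus) for Ccn1, chr8:112182376-112182625 (plus) for Amotl2, chr15:32000043-32000292 (minus) for Ajuba and chr8:13451438-13451687 (minus) for Yap1.
Ccn2: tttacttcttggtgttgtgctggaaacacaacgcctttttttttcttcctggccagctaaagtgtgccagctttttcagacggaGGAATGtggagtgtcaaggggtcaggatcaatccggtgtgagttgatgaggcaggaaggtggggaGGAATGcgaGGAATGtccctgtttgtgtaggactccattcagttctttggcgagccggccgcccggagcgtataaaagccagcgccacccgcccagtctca
Ccn1: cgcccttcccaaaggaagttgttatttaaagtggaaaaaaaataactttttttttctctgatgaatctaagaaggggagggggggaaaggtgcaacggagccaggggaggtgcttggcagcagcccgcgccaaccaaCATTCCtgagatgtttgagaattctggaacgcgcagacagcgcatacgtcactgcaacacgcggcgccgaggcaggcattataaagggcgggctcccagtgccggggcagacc
Amotl2: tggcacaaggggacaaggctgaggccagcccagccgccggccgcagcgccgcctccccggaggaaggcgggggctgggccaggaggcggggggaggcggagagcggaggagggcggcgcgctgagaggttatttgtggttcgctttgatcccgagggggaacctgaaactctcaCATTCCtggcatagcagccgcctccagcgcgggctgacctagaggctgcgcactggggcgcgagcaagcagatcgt
Ajuba: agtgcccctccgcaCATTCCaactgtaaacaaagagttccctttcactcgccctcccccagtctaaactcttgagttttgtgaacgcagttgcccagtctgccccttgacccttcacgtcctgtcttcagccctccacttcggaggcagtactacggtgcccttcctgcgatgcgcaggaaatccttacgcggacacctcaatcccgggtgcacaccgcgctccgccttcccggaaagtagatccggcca
Yap1: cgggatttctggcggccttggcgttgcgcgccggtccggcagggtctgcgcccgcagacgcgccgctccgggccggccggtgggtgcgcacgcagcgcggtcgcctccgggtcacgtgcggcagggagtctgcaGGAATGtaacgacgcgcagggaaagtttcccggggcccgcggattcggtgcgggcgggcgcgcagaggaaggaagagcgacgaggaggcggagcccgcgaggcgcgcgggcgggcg

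The match in Ccn1 began 113 bases before the start and that in Amotl2 76 bases before it, both reading CATTCC on the gene's strand. Ajuba had it 236 bases before the start, also on the gene's strand. The 3 matches in Ccn2 read GGAATG on the gene's strand and began 166, 101 and 92 bases before the start, and Yap1 had the same letters at 116. The windows of Axl and Wwtr1 held no such letters. A match is a description of letters and not a bound site, and no binding was measured.

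Ccn2, long known as connective tissue growth factor, encodes a secreted matricellular protein and is among the most used readouts of YAP. For this gene, NC libraries held 3222, 3204 and 3259 CPM, SEN libraries 652, 630.0 and 629.6 CPM, and BNPMT libraries 2607, 2758 and 2773 CPM. The SEN libraries lay far below all others, and the BNPMT libraries lay between the other groups without touching either. Ccn2 fell by 1.89 on the log2 scale in SEN against NC (SE 0.05, adjusted p = 7.58e-13), a level 3.70-fold lower. It rose in BNPMT against SEN by a log2 change of 1.59 ± 0.05 (SE, adjusted p = 3.84e-12). Against NC it was lower in BNPMT, at a log2 change of -0.30 ± 0.05 (SE, adjusted p = 0.000239). The window of Ccn2 is the one printed above with 3 matches.

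Ccn1, formerly Cyr61, encodes a related matricellular protein that binds integrins. For Ccn1, NC libraries held 634, 644 and 654 CPM, SEN libraries 319.7, 296 and 303 CPM, and BNPMT libraries 639, 671 and 676 CPM. NC and BNPMT overlapped, and all SEN libraries were lower. The log2 change in SEN against NC was -0.62 ± 0.05 (SE, adjusted p = 1.13e-07), closer to 0 than that of Ccn2, and -1.07 with total counts. Against SEN, the BNPMT libraries gave a log2 change of 0.61 ± 0.05 (SE, adjusted p = 1.13e-07). The log2 change of BNPMT against NC was -0.0098 ± 0.05 (SE, adjusted p = 0.897). Its call and sign depended on the setting: -0.17 once each library's trend of counts over transcript length was taken out (adjusted p = 0.000531) and 0.040 on total counts (adjusted p = 0.514).

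The remaining CCN genes did not share a direction in SEN. Of 4 tested, 1 was called higher, 2 lower and 1 was not called, with a median log2 change of -0.61. Of all genes, 37.6% were called higher and 38.5% lower. Ccn3, whose product is often described as an antagonist of CCN2, averaged 88.5 ± 5.55 CPM over NC libraries, 181 ± 12.5 over SEN libraries and 48.8 ± 4.74 over BNPMT libraries (SD, n = 3). It rose in SEN against NC, at a log2 change of 1.48 ± 0.07 (SE, adjusted p = 4.55e-10). Ccn4, a gene of Wnt responses, fell by 0.66 on the log2 scale (adjusted p = 2.56e-06) and Ccn5 fell by 0.59 (adjusted p = 7.90e-06) in the same comparison.

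Amotl2 encodes an angiomotin, a junction and actin scaffold that binds YAP and restrains it, and is itself a YAP target. For Amotl2, NC libraries held 425, 414 and 412 CPM, SEN libraries 139, 138 and 143 CPM, and BNPMT libraries 336, 316 and 314 CPM. The 3 groups did not overlap. Amotl2 fell by 1.12 on the log2 scale in SEN against NC (SE 0.05, adjusted p = 9.16e-11), a level 2.18-fold lower. In BNPMT against SEN it rose by 0.70 ± 0.05 (SE, adjusted p = 1.03e-08). Its level in BNPMT was below that in NC, at -0.42 ± 0.05 (SE, adjusted p = 1.30e-05) on the log2 scale.

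Ajuba encodes a LIM protein of cell junctions that binds and inhibits LATS kinases under tension. For Ajuba, NC libraries held 121, 121 and 121 CPM, SEN libraries 35.7, 29.2 and 31.3 CPM, and BNPMT libraries 119, 110.3 and 113 CPM. All SEN libraries lay below the rest, and the BNPMT libraries lay under NC by a small margin. Ajuba fell by 1.46 on the log2 scale in SEN against NC (SE 0.07, adjusted p = 2.95e-10), a level 2.75-fold lower. In BNPMT against SEN it rose by 1.32 ± 0.07 (SE, adjusted p = 6.87e-10). The log2 change of BNPMT against NC was -0.14 ± 0.07 (SE, adjusted p = 0.0990). That value passed the threshold without SEN 1 (adjusted p = 0.0319), in a fit of those 2 groups alone (adjusted p = 0.0256), and without SEN 1 and BNPMT 1 together (adjusted p = 0.00274).

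Axl encodes a receptor tyrosine kinase of the TAM family, activated by the ligand GAS6. For Axl, NC libraries held 636, 624 and 630.2 CPM, SEN libraries 416, 429 and 441 CPM, and BNPMT libraries 727, 629.9 and 651 CPM. The SEN libraries were the lowest in CPM, whereas on the TMM scale they held 522, 533 and 548 scaled CPM against 579.9, 570.0 and 573 in NC. The log2 change in SEN against NC was -0.10 ± 0.05 (SE, adjusted p = 0.0984). It was called lower at -0.56 on total counts (adjusted p = 6.84e-07) and at -0.31 without the length trend (adjusted p = 2.65e-07). Leaving out BNPMT 1 also gave a call (adjusted p = 0.0135), as did leaving out SEN 1 and BNPMT 1 together (adjusted p = 0.00981). Axl was called higher in BNPMT against SEN, at 0.14 ± 0.05 (SE, adjusted p = 0.0290). That call was lost in 9 of 20 alternatives, among them the replicate block (adjusted p = 0.0523), DESeq2 (adjusted p = 0.137) and leaving out SEN 1 (adjusted p = 0.0652), SEN 2 (adjusted p = 0.0526) or BNPMT 1 (adjusted p = 0.0533). BNPMT against NC gave 0.036 ± 0.05 (SE, adjusted p = 0.600), and a call of higher at 0.16 without the length trend (adjusted p = 0.000935).

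Of 4 other genes of TAM receptors and ligands tested, 3 were called higher and 1 lower in SEN against NC, and 2 higher and 2 lower with total counts. The shares of all genes called higher and lower were 37.6% and 38.5%, and 24.5% and 56.9% with total counts. Mertk, a TAM receptor gene, averaged 7.99 ± 0.586 CPM over NC libraries, 34.9 ± 5.51 over SEN libraries and 4.41 ± 2.19 over BNPMT libraries. It rose in SEN against NC, at a log2 change of 2.58 ± 0.21 (SE, adjusted p = 7.47e-08). Gas6 rose by 0.69 ± 0.05 (SE, adjusted p = 1.64e-08), and by 0.24 with total counts. Tyro3, the remaining TAM receptor gene, fell by 0.25 on the log2 scale (adjusted p = 0.00942), with a change of -0.70 with total counts. Whether these changes differ from that of Axl was not tested.

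Ankrd1 encodes a nuclear and sarcomeric ankyrin-repeat protein and is a standard YAP target. It had few reads, with counts of 49, 44 and 40 in the NC libraries, 20, 22 and 20 in the SEN libraries and 62, 65 and 69 in the BNPMT libraries. These are 0.955 to 1.42 CPM in NC, 0.521 to 0.705 CPM in SEN and 1.48 to 1.85 CPM in BNPMT, where 3 counts are worth 0.0715 to 0.0961 CPM. The SEN libraries were lowest and the BNPMT libraries highest in CPM, with no overlap. On the TMM scale NC overlapped both SEN and BNPMT, which did not overlap each other. The log2 change in SEN against NC was -0.50 ± 0.26 (SE, adjusted p = 0.103), and it was called lower with total counts at -0.95 (adjusted p = 0.00428). Ankrd1 rose in BNPMT against SEN by 0.98 ± 0.26 (SE, adjusted p = 0.00305), while BNPMT against NC gave 0.48 ± 0.23 (SE, adjusted p = 0.0977). The last of these was called by limma on log2(FPKM + 1) (adjusted p = 0.0134).

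**Figure D2:**
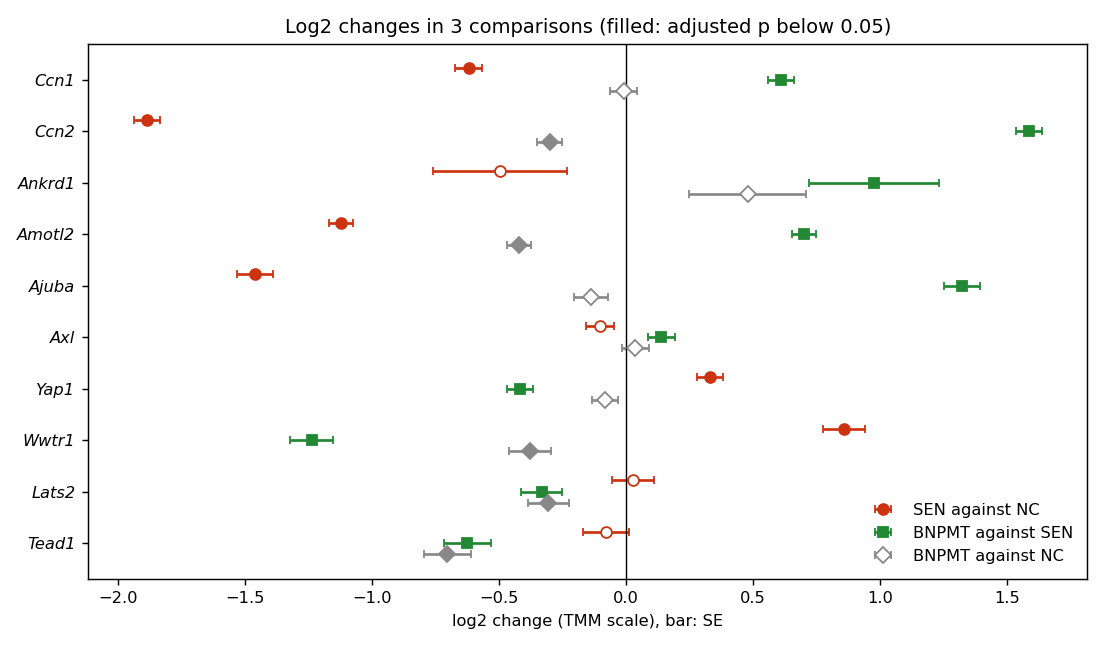
Log2 changes on the TMM scale (horizontal axis) of each gene in the 3 comparisons, with bars for the SE and filled marks for an adjusted p below 0.05. Ccn2, Ajuba, Amotl2 and Ccn1 lie left of 0 in SEN against NC and right of 0 in BNPMT against SEN, and Wwtr1 lies the other way round.

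Yap1 encodes the co-activator YAP, and the sign of its change in SEN depended on the scale. For Yap1, NC libraries held 235, 230.0 and 239 CPM, SEN libraries 209, 220.3 and 218 CPM, and BNPMT libraries 244, 221 and 222 CPM. The SEN libraries were the lowest in CPM. After TMM scaling they were the highest, at 263 to 274 scaled CPM, against 210.0 to 218 in NC and 195 to 212 in BNPMT. The log2 change in SEN against NC was 0.33 ± 0.05 (SE, adjusted p = 4.35e-05), and -0.12 on total counts (adjusted p = 0.0509). Against SEN, BNPMT gave -0.42 ± 0.05 (SE, adjusted p = 4.30e-06), and 0.087 on total counts (adjusted p = 0.146). BNPMT against NC gave -0.085 ± 0.05 (SE, adjusted p = 0.181), which was called without BNPMT 1 (adjusted p = 0.0308) and without SEN 1 and BNPMT 1 together (adjusted p = 0.00449).

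Wwtr1 encodes TAZ, the paralog of YAP, and rose in SEN. For Wwtr1, NC libraries held 45.7, 46.0 and 45.7 CPM, SEN libraries 55.9, 61.3 and 64.9 CPM, and BNPMT libraries 42.3, 33.2 and 33.9 CPM. The 3 groups did not overlap, with SEN highest and BNPMT lowest. Wwtr1 rose in SEN against NC by a log2 change of 0.86 ± 0.08 (SE, adjusted p = 4.28e-07), and by 0.41 with total counts. It fell by 1.24 on the log2 scale in BNPMT against SEN (SE 0.08, adjusted p = 9.12e-09) and was lower in BNPMT than in NC, at -0.38 ± 0.08 (SE, adjusted p = 0.00192). These 3 calls and their directions held in all 20 alternatives.

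The balance of the co-activator transcripts does not depend on the scale of the library, but the length trend was not taken out of it. Yap1 made up 64.0% ± 0.552 (SD, n = 3) of the summed FPKM of Yap1 and Wwtr1 in NC, 55.3% ± 1.35 in SEN and 68.7% ± 1.70 in BNPMT. No groups overlapped. With 3 libraries against 3, the smallest p an exact two-sided permutation test can give is 0.1, and each of the 3 comparisons gave p = 0.1.

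**Figure D3:**
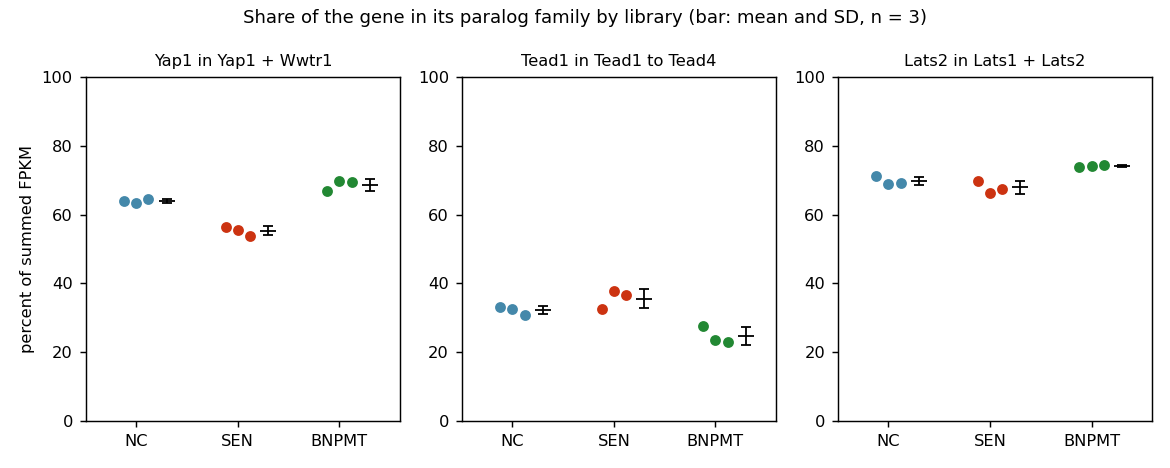
Share of each gene in the summed FPKM of its paralog family (vertical axis, percent), by library, with bars for the mean and SD of 3 libraries. The share of Yap1 is lowest in SEN and that of Tead1 lowest in BNPMT, while the shares of Lats2 in NC and SEN overlap. The length trend was not taken out of these shares.

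Tead1 encodes a DNA-binding partner of YAP and TAZ, and it was lower in BNPMT than in NC. For Tead1, NC libraries held 262, 257 and 243 CPM, SEN libraries 156, 182 and 189 CPM, and BNPMT libraries 189.6, 146 and 149 CPM. The SEN and BNPMT libraries lay below NC in CPM and overlapped each other, with BNPMT 1 just above the highest SEN library. The log2 change in SEN against NC was -0.079 ± 0.09 (SE, adjusted p = 0.444), and -0.53 on total counts (adjusted p = 0.000166). In BNPMT against NC it fell by 0.70 on the log2 scale (SE 0.09, adjusted p = 4.05e-05), with a change of -0.35 with the length trend taken out. Against SEN, BNPMT gave -0.62 ± 0.09 (SE, adjusted p = 2.37e-05). That call was lost with total counts (-0.12, adjusted p = 0.255) and the sign reversed without the length trend (0.073, adjusted p = 0.144). The Tead1 transcript is the longest of the 10, at 10491 bases as implied by the deposited FPKM.

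Tead3 fell in SEN against NC, at a log2 change of -0.87 ± 0.07 (SE, adjusted p = 3.28e-08), and of -1.33 with total counts. It averaged 62.3 ± 1.12 CPM over NC libraries, 24.8 ± 2.15 over SEN libraries and 53.1 ± 1.92 over BNPMT libraries. Tead4 also fell in SEN, at -0.34 ± 0.09 (SE, adjusted p = 0.00461), and -0.79 with total counts. Tead2 had a log2 change of 0.13 ± 0.07 (SE, adjusted p = 0.0842) that turned to -0.32 on total counts (adjusted p = 0.000569) and to -0.14 without the length trend (adjusted p = 0.0305). DESeq2 called it higher (adjusted p = 0.0301). Tead1 took 32.2% ± 1.15 (SD, n = 3) of the summed FPKM of the 4 genes in NC, 35.6% ± 2.75 in SEN and 24.7% ± 2.59 in BNPMT. NC and SEN overlapped in that share (exact permutation p = 0.2), and BNPMT was lower than each of them without overlap (p = 0.1 in both exact tests). The length trend was not taken out of these shares. With it taken out, the log2 change of Tead1 in BNPMT was 0.073 against SEN and -0.35 against NC.

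Lats2 encodes a kinase that inactivates YAP and is also a YAP target, part of a feedback loop. For Lats2, NC libraries held 98.9, 97.6 and 90.0 CPM, SEN libraries 66.6, 76.6 and 70.2 CPM, and BNPMT libraries 91.5, 71.6 and 77.0 CPM. The SEN libraries lay under NC in CPM, and BNPMT overlapped both groups, with BNPMT 1 the highest of its group. The log2 change in SEN against NC was 0.027 ± 0.08 (SE, adjusted p = 0.776) under TMM and -0.43 on total counts (adjusted p = 0.000423). Against SEN, BNPMT gave -0.33 ± 0.08 (SE, adjusted p = 0.00191), and 0.17 on total counts (adjusted p = 0.0796). Lats2 was lower in BNPMT than in NC, at -0.31 ± 0.08 (SE, adjusted p = 0.00621), a direction and call that held in all 20 alternatives, at -0.41 to -0.14.

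Lats1, the paralogous kinase gene, had a log2 change of 0.16 ± 0.10 (SE, adjusted p = 0.171) in SEN against NC. It was called higher without SEN 1 (adjusted p = 0.0310) and without SEN 1 and BNPMT 1 together (adjusted p = 0.00139), and lower with total counts, at -0.29 (adjusted p = 0.0248). Lats2 held 69.8% ± 1.17 (SD, n = 3) of the summed FPKM of both kinase genes in NC, 67.9% ± 1.80 in SEN and 74.1% ± 0.291 in BNPMT. The shares in NC and SEN overlapped (exact permutation p = 0.3), and those in BNPMT lay above all others (p = 0.1 in both exact tests). The length trend was not taken out of these shares either.

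**Figure D4:**
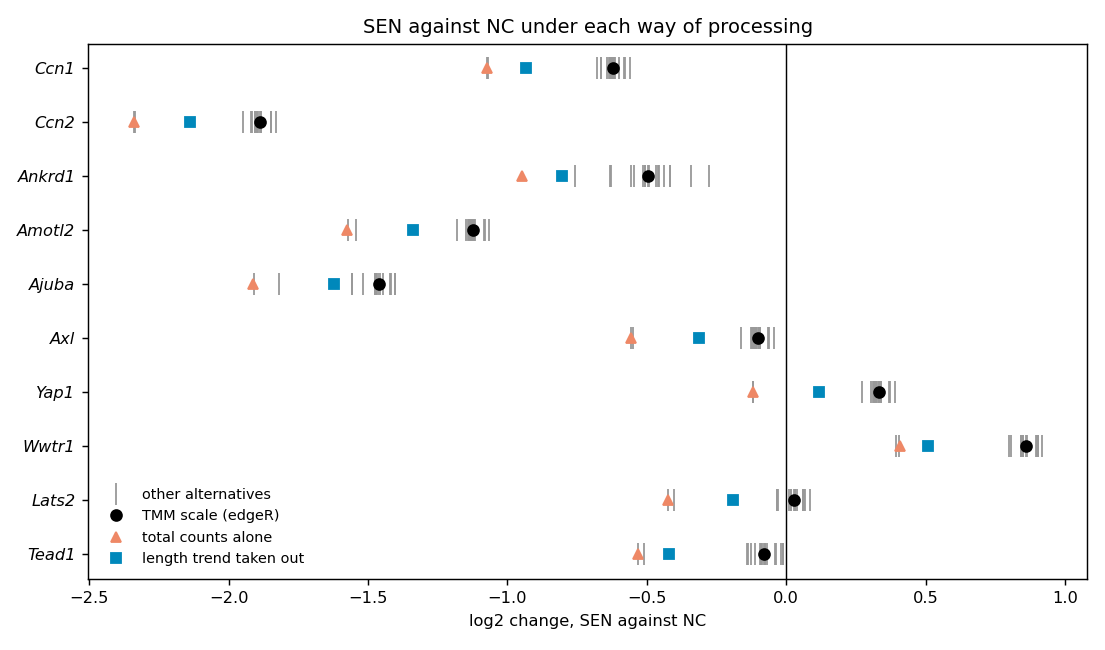
Log2 change in SEN against NC (horizontal axis) of each gene under the TMM scale, with total counts alone, with the length trend taken out, and under the other alternatives. Ccn1, Ccn2, Amotl2 and Ajuba stay left of 0 and Wwtr1 right of 0 in all of them, while Yap1 and Lats2 lie on both sides.

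Other genes of the Hippo relay moved in both directions in SEN. Of 31 tested, 14 were called lower, 8 higher and 9 were not called, with a median log2 change of -0.19 against -0.013 over all genes. Of all genes, 38.5% were called lower and 37.6% higher. With total counts 23 were lower and 7 higher, with a median of -0.65 against -0.46, where 56.9% of all genes were lower and 24.5% higher. Stk4, which encodes the upstream kinase MST1, averaged 29.9 ± 1.92 CPM over NC libraries, 7.59 ± 0.461 over SEN libraries and 28.3 ± 2.78 over BNPMT libraries. It fell in SEN against NC at -1.53 ± 0.09 (SE, adjusted p = 2.36e-09). Stk38l, which encodes an NDR kinase related to LATS, averaged 52.6 ± 2.57, 7.93 ± 1.04 and 53.3 ± 1.58 CPM in the same order. It fell in SEN at -2.27 ± 0.09 (SE, adjusted p = 2.90e-11).

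Rassf1, which encodes a scaffold that binds MST kinases, averaged 32.7 ± 1.18 CPM over NC libraries, 69.0 ± 5.94 over SEN libraries and 31.2 ± 0.554 over BNPMT libraries, and rose in SEN at 1.53 ± 0.07 (SE, adjusted p = 2.09e-10). Mob1b, a LATS co-activator gene, averaged 19.4 ± 0.356, 31.8 ± 10.5 and 8.86 ± 3.82 CPM in that order. Its rise of 1.16 ± 0.24 (SE, adjusted p = 0.000611) was 0.65 and not called by limma on log2(FPKM + 0.1) (adjusted p = 0.0599). Ptpn14, a phosphatase gene that restrains YAP and is also counted in the target signature described next, had a log2 change of -0.19 ± 0.11 (SE, adjusted p = 0.112). It was called lower at -0.65 on total counts (adjusted p = 0.000111), without SEN 3 (adjusted p = 0.0371) and without BNPMT 1 (adjusted p = 0.0151). Among the 31 genes, 18 were called lower and 10 higher in BNPMT against SEN under TMM, where 39.9% and 40.7% of all genes were called. The split was 11 and 15 with total counts, where 25.8% and 57.3% of all genes were called. Against NC, 22 were called lower and 0 higher in BNPMT by edgeR (1 higher at an unadjusted p below 0.05, and 0 by DESeq2), where 26.5% and 26.3% of all genes were called. These counts were 17 and 2 with total counts (22.5% and 30.2% of all genes), and 14 and 2 without the length trend (22.4% and 23.6%), where the median of the list went from -0.26 to -0.078.

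Beyond the 10 genes, a published signature of YAP and TAZ targets held 16 more. Of these, 8 were called lower and 5 higher in SEN against NC, beside 38.5% and 37.6% of all genes, with a median log2 change of -0.27. With total counts 11 were lower and 4 higher, beside 56.9% and 24.5% of all genes. Myof, which encodes the membrane repair protein myoferlin, fell at -1.02 ± 0.07 (SE, adjusted p = 1.61e-08), and averaged 534 ± 11.7 CPM over NC libraries, 192 ± 9.61 over SEN libraries and 458 ± 57.5 over BNPMT libraries. Gadd45a, also a p53 target induced by DNA damage, rose at 2.03 ± 0.10 (SE, adjusted p = 2.56e-10), and averaged 83.6 ± 8.43, 249 ± 22.4 and 150.1 ± 15.1 CPM in that order of groups. Igfbp3, which encodes a secreted binding protein of insulin-like growth factors, rose at 1.85 ± 0.05 (SE, adjusted p = 1.95e-12), with 90.5 ± 3.10, 238 ± 2.47 and 73.6 ± 2.77 CPM. The signature held genes called in each direction. Under TMM 4 of them were called higher and 9 lower in BNPMT against SEN (40.7% and 39.9% of all genes), and 9 and 5 with total counts (57.3% and 25.8%). Against NC, 12 were called lower and 2 higher in BNPMT (26.5% and 26.3% of all genes), the same numbers as with total counts (22.5% and 30.2%). Without the length trend 8 were lower and 2 higher (22.4% and 23.6%).

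**Figure D5:**
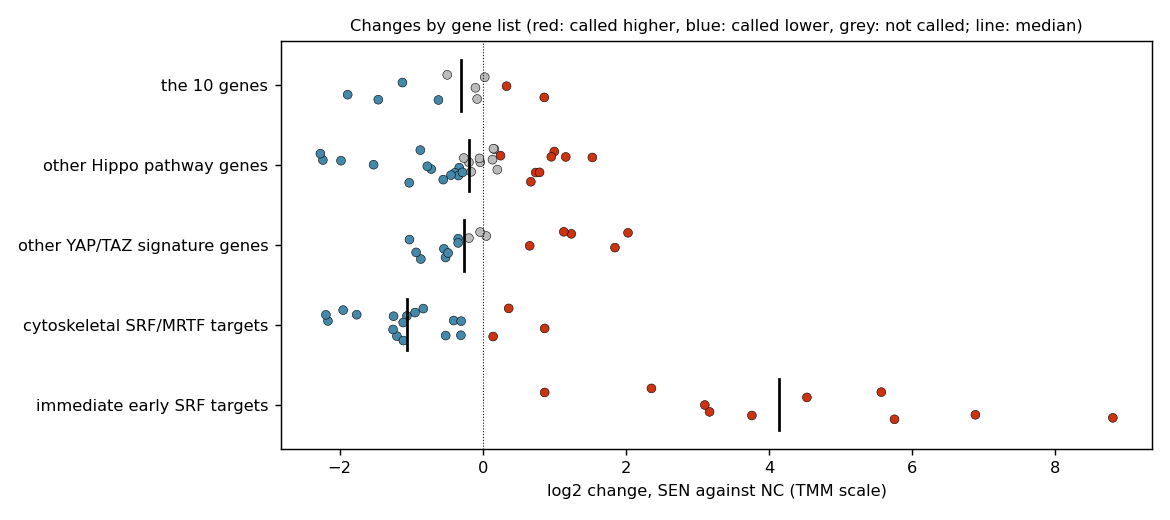
Log2 changes in SEN against NC on the TMM scale (horizontal axis) for the genes of the lists (rows, points spread vertically at random), with a line at each median. The genes of the cytoskeletal SRF and MRTF list lie mostly left of 0, with a median of -1.06. That list includes Srf, Mrtfa and Mrtfb themselves. The genes of the immediate early list, Srf among them, all lie right of 0, with a median of 4.14.

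YAP targets such as Ccn1, Ccn2 and Ankrd1 are also known to respond to SRF, a factor that with its MRTF partners senses actin and with other partners drives immediate early genes. The list of the cytoskeletal SRF and MRTF programme held 19 genes, with Srf, Mrtfa and Mrtfb themselves among them. In SEN against NC 16 were called lower and 3 higher, beside 38.5% and 37.6% of all genes, with a median log2 change of -1.06. With total counts 17 were lower and 1 higher, beside 56.9% and 24.5% of all genes, with a median of -1.51. Lmod1, which encodes the actin nucleator leiomodin, fell at -2.19 ± 0.07 (SE, adjusted p = 4.78e-12), and averaged 46.9 ± 0.858 CPM over NC libraries, 7.50 ± 0.456 over SEN libraries and 27.7 ± 0.243 over BNPMT libraries. Acta2, the smooth muscle actin gene, fell at -2.16 ± 0.06 (SE, adjusted p = 9.81e-13), with 2387 ± 7.26, 389 ± 21.2 and 1145 ± 53.5 CPM. Zyx, a focal adhesion gene, had a log2 change of 0.36 ± 0.05 (SE, adjusted p = 1.29e-05), whose direction turned with total counts (-0.091, adjusted p = 0.0937). In BNPMT against SEN 13 of the 19 genes were called higher and 3 lower, beside 40.7% and 39.9% of all genes. BNPMT against NC had 14 called lower, 0 higher and 5 not called by edgeR, with a median of -0.33, beside 26.5% lower and 26.3% higher of all genes. At an unadjusted p below 0.05 edgeR called 1 higher, DESeq2 1 after adjustment, and edgeR 2 with total counts.

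Srf itself rose in SEN at 0.86 ± 0.05 (SE, adjusted p = 2.96e-09), and by 0.41 with total counts. The 10 immediate early genes on the list, Srf among them, were all called higher in SEN against NC and all called lower in BNPMT against SEN, also with total counts. Beside these stand 37.6% of all genes called higher in SEN against NC and 39.9% called lower in BNPMT against SEN. With total counts the shares were 24.5% and 25.8%. Fosb averaged 2.90 ± 0.388 CPM over NC libraries, 953 ± 21.5 over SEN libraries and 1.83 ± 0.449 over BNPMT libraries. Egr3 averaged 0.897 ± 0.208, 78.4 ± 7.53 and 0.700 ± 0.377 CPM in that order. Ccn1 was called lower in SEN against NC, where each listed immediate early gene was called higher. A link of SRF or MRTF to the changes of the 10 genes was not tested.

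The profile over the 9 libraries was compared between genes by the root mean square distance of log2(CPM + 0.5), centred per gene, over genes with a mean of at least 5 CPM. The points share the scale and depth of their libraries, so likeness is a description of CPM only. Of 10415 other genes, the closest to Ccn1 were Anxa6 at a distance of 0.023, and Idh2, Nkiras2, Armc5 and Srp68 at 0.041 to 0.045. Closest to Yap1 were Rtf1, Pak2, Irak1, Slc35f5 and Zc3h14, at 0.028 to 0.042. Among the 10 genes without Ankrd1, which lay below that level, the closest pair was Yap1 and Lats2 at 0.15, followed by Lats2 and Tead1 at 0.18 and Ccn2 and Ajuba at 0.19.

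Marker genes of the labelled and of other cell types also moved between groups. Of all genes, 37.6% were called higher and 38.5% lower in SEN against NC, and 40.7% and 39.9% in BNPMT against SEN. With total counts these shares were 24.5% and 56.9%, and 57.3% and 25.8%, so the counts below do not set a list apart by themselves. The nucleus pulposus and cartilage list (15 genes in the table) summed to 5495 to 5764 CPM over NC libraries, 7483 to 7611 over SEN libraries and 2607 to 2833 over BNPMT libraries. Its members went both ways: of 12 tested, 8 were called higher and 4 lower in SEN against NC, and 4 higher and 8 lower in BNPMT against SEN. The notochordal gene Tbxt had at most 6 counts and Krt18 at most 7 counts in a library. The 6 smooth muscle markers summed to 4764 to 4808, 1522 to 1704 and 2746 to 2989 CPM in that order of groups, lowest in SEN as were the 4 fallen YAP targets. Acta2, Cnn1 and Tagln among them are also on the cytoskeletal SRF and MRTF list. Of the 6, 5 were called lower and 1 (Des, 0.46) higher in SEN against NC. In BNPMT against SEN 4 were called higher and 1 (Smtn, -0.59) lower. The 6 fibroblast and annulus markers summed to 42948 to 44538, 41679 to 41848 and 20036 to 23148 CPM. In SEN against NC 4 of these were called higher and 1 lower under TMM, and 2 higher and 3 lower with total counts. In BNPMT against SEN 1 was called higher and 5 lower on both scales. The 6 endothelial markers summed to 1.04 to 1.55, 4.95 to 5.42 and 0.981 to 1.54 CPM. Pecam1, an endothelial and platelet gene, had 0, 2 and 0 counts in NC libraries, 151, 135 and 137 in SEN libraries and 1, 1 and 1 in BNPMT libraries. It was called higher in SEN against NC (adjusted p = 7.45e-10), as was the endothelial receptor gene Kdr (adjusted p = 0.00582). Tek (log2 change -0.67, adjusted p = 0.0754) and Vwf (0.41, adjusted p = 0.440) were not called there. Unlike Pecam1, Kdr was not called in BNPMT against SEN, at -0.062 (adjusted p = 0.909). It was called higher in BNPMT against NC, at 2.05 (adjusted p = 0.00855). The 6 endothelial markers together summed to at most 1.54 CPM in BNPMT, so Kdr rested on few reads. In a fit of BNPMT and NC alone, 0 endothelial markers were called higher. Cdh5, the cadherin gene of endothelium, had at most 2 counts in a library. Of 6 leukocyte markers the 3 in the table summed to 0.215 to 0.840, 22.7 to 26.5 and 0.478 to 0.762 CPM. Most of the SEN sum was Cd68, a lysosomal gene of macrophages and other cells, at 22.6 ± 1.81 CPM (adjusted p = 2.98e-11 in SEN against NC). Cd79a, a B cell gene, had 0, 0 and 1 counts in NC libraries, 46, 40 and 47 in SEN libraries and 0, 0 and 2 in BNPMT libraries, and was called higher in SEN against NC (adjusted p = 1.81e-07) and lower in BNPMT against SEN (adjusted p = 1.71e-07). Csf1r had at most 19 counts in a library. The part of these cell types in the changes of the 10 genes was not tested.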

How the data were processed

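The authors deposited whole-number counts per gene and FPKM for 9 libraries, 3 in each of 3 groups taken from the sample titles. Each FPKM value equals the count divided by the library's total and a fixed length per gene (largest relative difference 6.66e-16). Per the submitters' processing notes the tools were fastp, HISAT2 and HTSeq and the build mRatBN7.2, with no versions. For annotation and strand the entry is "not given in the sources used here", and overlapping or antisense genes therefore cannot be told apart.

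filterByExpr kept 14956 genes, all 10 members among them. Tests were quasi-likelihood F tests of edgeR 4.0.16 (R 4.3.3) with TMM factors, fitted to the 9 libraries together, and p-values were adjusted by the Benjamini-Hochberg method over the tested genes, with 0.05 as the limit. All adjusted p-values are from that test unless another is named, and SE is the size of the log2 change over the root of F. Paralog shares were compared by exact permutation (scipy 1.17.1). Alternatives used DESeq2 1.42.0, limma 3.58.1 on log2(FPKM + 1) and log2(FPKM + 0.1), whose added constants understate changes of low genes, and other scales, filters and subsets. The length trend was a loess curve with a span of 0.3. The tests were tried on simulated counts, whose outcome is not given here. Replicate numbers in the titles did not pair the libraries, and none was a duplicate. A value of 3 counts is given as the floor and covers counting error only.

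The members, lists and alternatives were chosen with earlier results of these data known. Named genes beyond the members were, per list, up to 2 called rises and 2 called falls, the largest in SEN against NC at a mean of at least 5 CPM, with Lats1, Tead2, Tead3, Tead4 and Ptpn14 always, and the 5 genes most like Ccn1 and Yap1. Among the genes chosen by this rule, 1 is not reported here. Marker genes named with counts were chosen after their values were seen.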

Additional observations from a re-analysis of the deposited data

How the results depend on the processing

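The directions and calls of Ccn1, Ccn2, Amotl2, Ajuba and Wwtr1 in SEN against NC and in BNPMT against SEN held in all 20 alternatives. In SEN against NC the members called higher went from 2 to 1 with total counts and in both FPKM fits, and those called lower from 4 to 8 with total counts or without the length trend and to 9 in both FPKM fits. Of all genes, 38.5% were called lower in that comparison on the TMM scale, 56.9% with total counts, 51.9% without the length trend, and 56.4% and 56.9% with 1 and 0.1 added to FPKM. In BNPMT against SEN those called lower went from 4 to 1 in these 4 settings, and in BNPMT against NC those called higher from 0 to 1 in both FPKM fits (Ankrd1) and without the length trend (Axl). All genes called higher in SEN against NC were 5628 on the TMM scale, 3667 with total counts, and 3651 and 3673 with 1 and 0.1 added to FPKM. All genes called lower in BNPMT against SEN were 5969, and 3857, 3782 and 3829 in the same order.

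Some signs reversed. With total counts, the log2 changes of Yap1, Lats2, Lats1, Tead2 and Zyx in SEN against NC, of Yap1 and Lats2 in BNPMT against SEN and of Ccn1 in BNPMT against NC were -0.12, -0.43, -0.29, -0.32, -0.091, 0.087, 0.17 and 0.040. With 1 added to FPKM they were -0.12, -0.40, -0.26, -0.30, -0.091, 0.084, 0.15 and 0.040, and with 0.1 added -0.12, -0.42, -0.29, -0.32, -0.092, 0.085, 0.16 and 0.040. Without the length trend, SEN against NC gave -0.19 for Lats2, -0.12 for Lats1 and -0.14 for Tead2, BNPMT against SEN gave 0.053 for Lats2 and 0.073 for Tead1, and BNPMT against NC gave 0.047 for Yap1. Lats2 in SEN against NC was -0.033 with no filter on counts and -0.034 to 0.059 when 1 library was left out. In BNPMT against NC, Axl was -0.019 to 0.067 and Ccn1 -0.031 to 0.022 when 1 library was left out, and -0.023 and 0.018 without SEN 1 and BNPMT 1 together. The cause of these reversals was not tested.

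Leaving out 1 library at a time gave 4 to 5 members lower and 2 higher in SEN against NC, 5 to 6 higher and 4 lower in BNPMT against SEN, and 5 to 6 lower in BNPMT against NC. The replicate block ended the call of Axl in BNPMT against SEN (0.14, adjusted p = 0.0523) and changed no other call of a member. With the block 5517 genes were higher and 5626 lower in SEN against NC. Libraries with the same replicate number had deviations correlated at -0.24 to 0.058, and not every library correlated best with its own number, so the numbers were not taken as pairs. Depth limited Ankrd1, with 20 to 69 counts in a library.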
